A study of Mus musculus with 2 samples.

Results

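In RNA from the mouse ovary, 2194 of 667197 contigs were at least 3000 bases long. A contig is an unbroken stretch of 1 strand of the genome that is covered by reads. The 2194 were chosen by length alone, as the distance from start to end in the authors' deposited contig table on the build mm9, with no use of their level, strand or sequence. They were 0.329% of all contigs and held 4.36% of the covered bases. They carried 20.3% of the read bases summed over contigs, taken from a deposited column whose meaning was inferred from its values.

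The RNA came from the ovaries of 8-week-old female C57BL/6J mice, per the labels, with no treatment, transgene or second genotype. Polyadenylated RNA longer than 200 nucleotides, without most ribosomal RNA, was sequenced as 2 stranded libraries of paired 76-base reads. The libraries form 1 group and cite the same donor record, so the spread between them may be technical. Replicate 1 had a depth of 41124064 gene counts and replicate 2 of 34930872. The contig and junction tables give 1 value per feature with no library named, so values of contigs and junctions have no replicate error, and levels of contigs were compared without a test.

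Most mature messenger RNAs are made of short exons joined across introns, so that reads of spliced RNA cover the genome in separate pieces, 1 for each exon. Coverage runs on without a break where an exon is itself long, as last exons that carry the 3' untranslated region often are, or where reads also lie in the introns between exons. The ovary holds follicles with their oocytes and granulosa cells, steroid-making theca and luteal cells, stroma, vessels and surface epithelium, and whole tissue gives the sum of these.

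Splice junctions of the same build tie contigs to genes. Junctions with at least 10 reads were used, 116810 of 438382. Where the lengths of an intron, the next exon and the next intron equalled those of exactly 1 gene in the GENCODE M21 annotation, on the same chromosome and strand, the contig touched by them was given that gene's name. No coordinate was converted between builds. The lengths of 86357 such chains belonged to 1 gene only, and 99.98% of them lay on that gene's chromosome and strand. By this rule 1769 long contigs (80.6%) were matched, to 1549 genes, and 425 were not. The 1549 are 13.8% of the 11226 genes that could be reached in this way.

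The spliced coding sequences at 7 junctions show what ties these contigs to their genes. They belong to the longest matched contig, to the 4 matched contigs with the highest level and to 2 contigs that contain an exon of over 3000 bases. Each is 20 bases of 1 exon in lower case followed by the first 20 bases of the next exon in capitals, 5′ to 3′, from the GENCODE M21 transcripts, so the intron lies where the capitals begin. Chosen for each was the junction with the most reads that lies in the contig and has coding sequence on both sides, and for Plec and Srrm2 the junction that enters the long exon.
Fasn: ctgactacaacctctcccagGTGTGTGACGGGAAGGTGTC
Actb: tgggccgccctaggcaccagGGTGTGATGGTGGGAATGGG
Eef2: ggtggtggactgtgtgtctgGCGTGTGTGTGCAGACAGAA
Eef1a1: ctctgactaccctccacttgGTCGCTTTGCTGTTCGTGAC
Rack1: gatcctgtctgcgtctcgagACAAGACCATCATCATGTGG
Plec: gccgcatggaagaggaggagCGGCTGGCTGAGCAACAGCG
Srrm2: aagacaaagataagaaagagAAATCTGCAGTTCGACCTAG

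The intron removed at the Fasn sequence lay on the minus strand at chr11:120669306-120669388 of mm9, was 83 bases long and was spliced out in 11800 reads. That of Actb lay at chr5:143667156-143667242, was 87 bases long and was spliced out in 72497 reads. The Eef2 intron, at chr10:80640980-80641425, was 446 bases long with 31268 reads, and the Eef1a1 intron, at chr9:78326666-78326764, was 99 bases long with 14485 reads. For Rack1 the intron at chr11:48614075-48615164 was 1090.0 bases long and had 83771 reads. The introns of these 5 genes were therefore covered by the contig although 11800 reads or more skipped them. At Plec, 355 reads crossed the 1010.0-base intron at chr15:76012330-76013339 into an exon of 3381 bases. In the Plec contig 3381 bases, as many as in this exon, were intron in 1 matched chain and exon in another. At Srrm2, 363 reads crossed the 2501-base intron at chr17:23949588-23952088 into an exon of 6569 bases.

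Long contigs had a median length of 3753 bases, with quartiles of 3311 and 4579 and a maximum of 13479. At least 4000 bases were reached by 887, at least 5000 by 389, at least 6000 by 188, at least 8000 by 37 and at least 10000 by 12. Their median level was 10.7, with quartiles of 5.01 and 21.2 and a range from 0.432 to 1840.0. The level is the authors' signal per contig, proportional to the column read here as summed read bases, divided by length. Contigs below 3000 bases had a median level of 0.236. The median was 2.40 from 1000 to under 2000 bases and 6.14 from 2000 to under 3000 bases, so it was higher in each longer band. Within the long contigs the rank correlation of length and level was 0.16 (Spearman, n = 2194), against 0.40 over all 667197 contigs. Both measures come from the same reads.

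The longest contig, 13479 bases at chr11:120667421-120680899 on the minus strand, matched Fasn, the fatty acid synthase. It had a level of 131 and contained 34 matched introns, which made up 36.1% of its bases. The next, 13221 bases at a level of 18.6, matched Cyhr1 and contained 5 matched introns, 70.6% of its bases. The third, 12630.0 bases at chr8:124783837-124796466 on the plus strand, matched no gene, had a level of 2.70 and met no junction of more than 25 reads. Plec, which encodes the cytoskeletal linker plectin, had a contig of 12286 bases at a level of 64.5. The others among the 10 longest were Rbpms, an RNA-binding protein (11595 bases, level 8.45), and Pank4, of the pantothenate kinase family (11113 bases, level 8.80). They were also Cttn, the actin-binding protein cortactin (10892 bases, level 6.42), and Rexo1 (10306 bases, level 20.3). Last came Ankrd52, an ankyrin repeat protein (10249 bases, level 19.6), and the tetraspanin Cd81 (10058 bases, level 12.1). Levels in the 10 longest thus ran from 2.70 to 131, on both sides of the median of all long contigs.

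The highest level, 1840.0, belonged to the 3140-base contig of Actb, cytoplasmic actin, at chr5:143665363-143668502 on the minus strand. It held 5 matched introns, 54.8% of its bases. Among the matched contigs Eef2, elongation factor 2, followed with a level of 778 over 6262 bases, and Eef1a1, elongation factor 1 alpha, 539 over 3245 bases. The ribosome-bound scaffold Rack1 had 500 over 3928 bases. The splicing factor Srsf2 had 383, the tubulin Tubb5 297, smooth muscle actin Acta2 246 and Isyna1, an enzyme of inositol synthesis, 244. In the 10 highest, 2 contigs had no match. One at chr17:39979936-39985858 on the plus strand had a level of 1010.0 over 5923 bases, while its strongest junction had 256 reads. The other at chr1:75501632-75509123 on the plus strand had 739 over 7492 bases, with a junction of 12109 reads.

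The 5 lowest levels, from 0.432 to 0.536, belonged to contigs of 3027 to 4343 bases on chromosomes 11, 4, 2 and 19. None of the 5 held an end of a junction of at least 10 reads, and none was matched. Those on chromosomes 11, 2 and 19, but not that on chromosome 4, lay wholly within the intron of such a junction. Among all long contigs, 264 were spanned in this way. At the length threshold, 3 contigs had exactly 3000 bases: one matched to Urm1, a ubiquitin-like modifier, at a level of 8.82, and 2 unmatched at 40.6 and 4. Just below it, 1 base short, lay Dcdc2b (level 3.80) and an unmatched contig (1.40), and then Zfp771 at 2998 bases (95.9).

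A splice junction end lay inside 1926 long contigs (87.8%), against 56.4% of the 25763 contigs of 1000 to under 3000 bases. A longer stretch can meet more junctions for its length alone. The long contigs fell into 3 classes by their junctions. Whole introns lay inside 1339 (61.0%), with a median level of 14.1 and a median of 4 introns. A junction end but no whole intron was found in 587 (26.8%), with a median level of 8.58. No junction end was found in 268 (12.2%), with a median level of 3.10. Of the contigs of this shorter band the 3 classes took 22.2%, 34.2% and 43.6%. The order of the levels was the same in them, at 9.03, 4.98 and 1.00. Among long contigs with a junction end, the strongest junction had a median of 393 reads, against 177 in the shorter band.

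**Figure D1:**
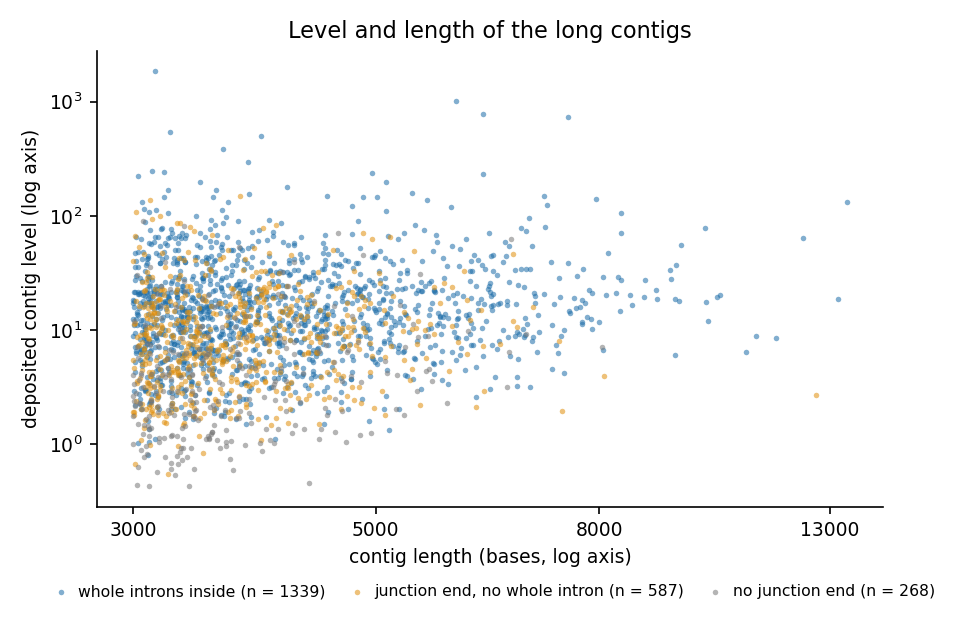
Length (bases, log axis) and deposited level (log axis) of the 2194 long contigs, 1 point each, coloured by their splice junctions. The 268 without a junction end lie low, with a median level of 3.10, and the 1339 with whole introns inside lie higher, with a median of 14.1.

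Contigs without a junction end were not all weak. The highest of them, 3064 bases at chr4:94715866-94718929 on the minus strand, had a level of 89.5. The others in the first 5 had levels of 81.7 (chromosome 7, 3337 bases), 70.4 (chromosome 2, 4622 bases), 62.1 (chromosome 19, 6638 bases) and 53.7 (chromosome 12, 3746 bases). All 5 were on the minus strand. They were named after their class was known and carry no gene name, since the match needs junctions.

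Of the 1769 matched contigs, 1042 (58.9%, 939 genes) held a whole matched intron or more and had neither exon shape described next. Their median level was 14, a median of 4 matched introns lay inside, and introns made up a median of 45.9% of their bases. In 477 (27%) over 50% of the length was the gene's last exon, with a median level of 12.5. In 48 (2.71%) over 50% was a single internal exon, with a median level of 15.7. The other 202 had none of these shapes by matched lengths, and a median level of 4.76. The host genes of the 1042 contigs had a median of 93.5 TPM (a level per length, scaled to a fixed total per library), and those of last exon contigs 39.1 TPM.

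The introns inside were short. A total of 5613 matched introns lay wholly inside 1235 long contigs, with a median length of 238 bases and quartiles of 104 and 601. The other 93172 matched introns had a median of 1179 bases and quartiles of 384 and 3002. A contig with such introns held a median of 3 and at most 34, the number in Fasn. The longest intron covered from end to end had 9713 bases. Bases that every matched chain left as intron made up a median of 40.1% of these 1235 contigs and over 50% of 430 of them. In 429 contigs some bases were intron in 1 matched chain and exon in another, and these were not counted as intron. A short intron fits into a contig of a given length more easily than a long one, so the rule itself bears on this difference.

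All introns of a transcript of at least 3 exons, from the annotation's basic set, lay within the contig in 89 cases (5.03%), each a different gene. The most exons were 18, in Nrbp2, a member of a family related to kinases, whose contig had 6195 bases and a level of 41.4. The apoptosis adaptor Pidd1 followed with 16 exons in 5924 bases, at a level of 5.49. Eef2 had 14 exons in its 6262 bases, and Mfsd10, a transporter family member, 13 in 3570.0 bases at a level of 59.3.

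**Figure D2:**
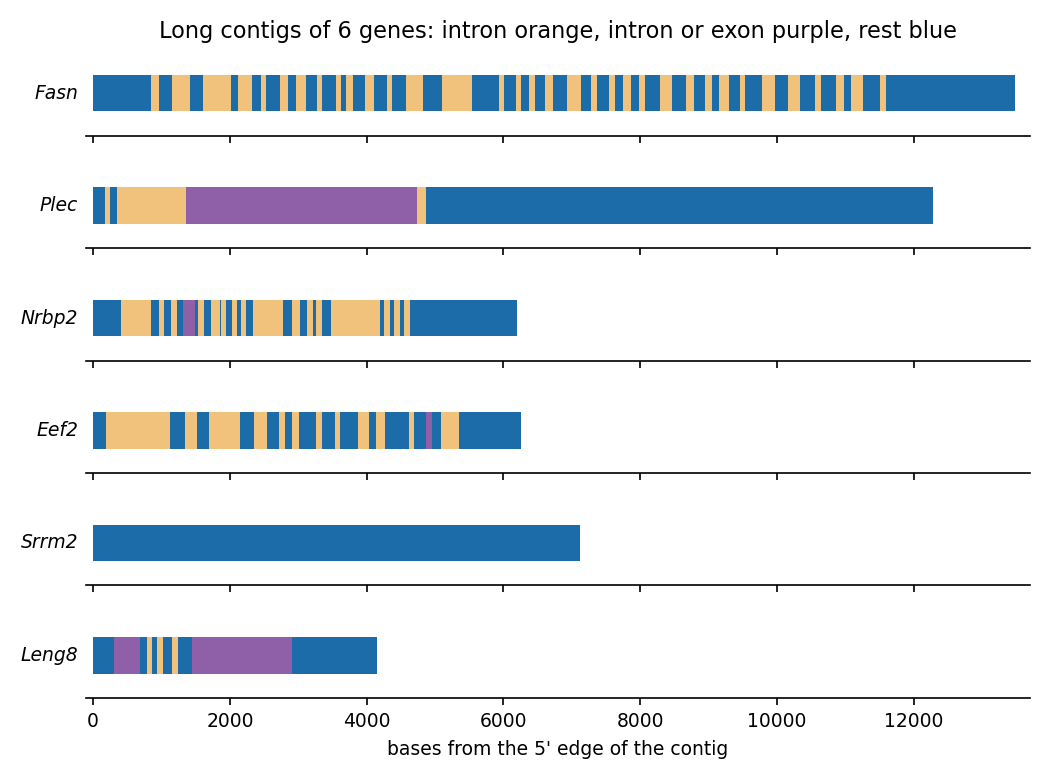
Maps of the long contigs of 6 genes, drawn to scale in bases from the 5' edge. Orange marks bases that are intron in every matched chain, purple those that are intron in 1 chain and exon in another, and blue the rest; Fasn holds 34 introns, Plec a 7412-base last exon, and Srrm2 an exon of 6569 bases with no matched intron.

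In the 477 last exon contigs, coverage past the last matched splice acceptor had a median of 3182 bases, and the annotated last exon had a median of 3196. Coverage was within 90 to 110% of the annotated length in 255 (53.5%), below it in 111 and above it in 111. The median ratio was 99.2%. Tubb5 was covered for 2119 of 2119 bases. In Ctsb, the lysosomal protease cathepsin B, 3690.0 of 3692 bases were covered at a contig level of 110. In Timp2, an inhibitor of matrix metalloproteases, 2836 bases were covered where 2828 are annotated. Plec had the longest contig of this shape, with 7414 bases covered where the annotation gives 7412. Ankrd52 was covered for 5566 bases where 3536 are annotated, and Celf1, an RNA-binding protein, for 2295 of 2932.

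**Figure D3:**
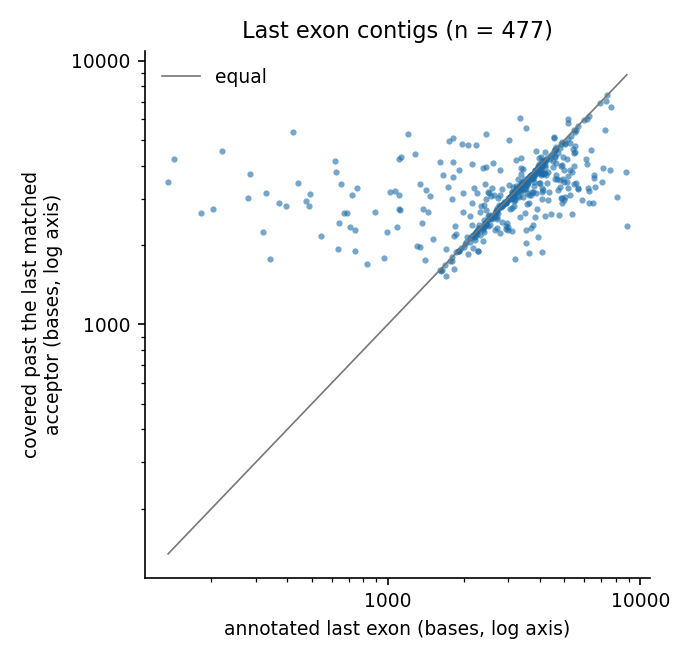
Bases covered past the last matched splice acceptor against the annotated length of the last exon (both log axes) for the 477 contigs that are mostly last exon. The line marks equal lengths; 255 contigs lie within 90 to 110% of it.

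Large internal exons carried 48 contigs, where the exon is the longest between matched introns in any matched chain. Srrm2, a large splicing-associated protein rich in serine and arginine, had an internal exon of 6569 bases in a contig of 7122 bases, at a level of 150. Rai1 had one of 5527 bases in a contig of 6955, at a level of 15.8, and Ahdc1 one of 4902 bases in 5048, at a level of 26.0. The microtubule-associated Map1s had an exon of 3669 bases in a contig of 6860.0, at a level of 34.5. In that contig 2736 bases were intron in 1 matched chain and exon in another. The contigs of Srrm2, Rai1 and Ahdc1 had no such bases.

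Genes with a long contig had a higher median level than the other genes that could be matched, given here as a description with no test. Their median was 67.8 TPM (mean of both libraries, quartiles 32.6 and 136, 1538 genes with a value), and that of the other 9630 genes was 16.6. In replicate 1 the median was 68.0 and in replicate 2 it was 66.1 TPM. The share of genes with a long contig was 1.82% at 1 to 10 TPM, 9.11% at 10 to 30, 22.1% at 30 to 100 and 34.4% at 100 TPM or more. Genes with a long contig had a median intron of 835 bases, against 1483 in the others, and a median of 12 annotated exons against 10. Within the upper 3 of these TPM ranges the median intron was shorter in genes with a long contig, at 1244 against 1595, 928 against 1195, and 556 against 771 bases. At 1 to 10 TPM it was longer, at 2306 against 1801 bases, in 62 genes with a long contig.

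Contig level followed the level of its gene. Over 1538 genes, taking the longest contig of each, Spearman's rho of contig level and TPM was 0.65 in replicate 1 and 0.64 in replicate 2. Pearson's r on log values was 0.68 and 0.67. These are correlations across genes, which are not independent replicates, and the reads are in part the same. The 10 host genes with the highest TPM were Actb, Sparc, Rack1, Eef1a1, Eef2, Rpl10a, Rpl13a, Clu, Atp5d and Acta2. Actb stood at 7483 and 7476 TPM in replicates 1 and 2 (7480 ± 4.58, SD, n = 2). Sparc, a collagen-binding matrix protein, stood at 4380 and 3293 TPM with a contig level of 100, below that of Eef2, which stood at 2966 and 2664 TPM with a level of 778. The ribosomal protein gene Rpl13a stood at 3753 and 1243 TPM, the widest gap of the 10.

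**Figure D4:**
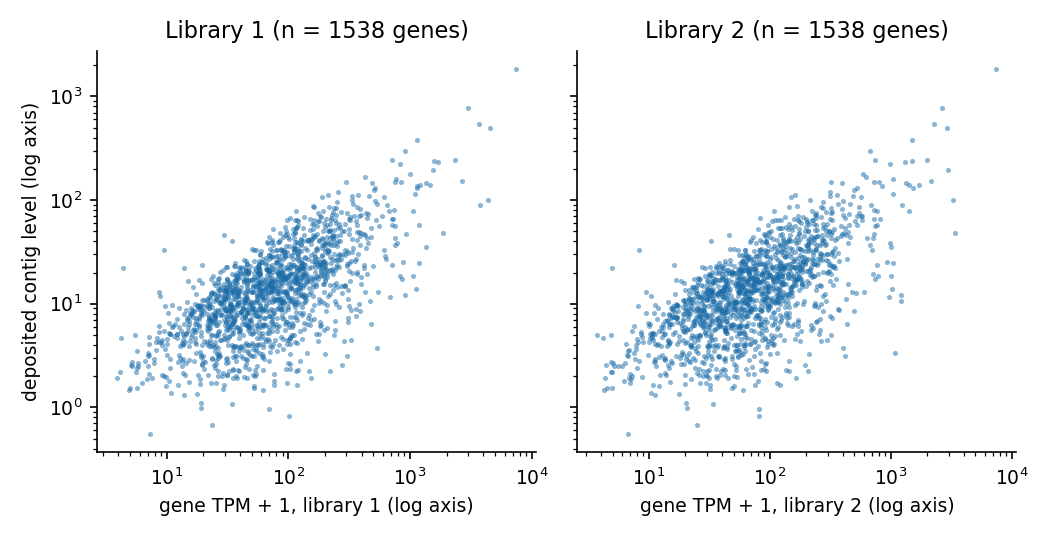
Deposited level of the longest long contig of each gene (log axis) against the gene's TPM + 1 (log axis) in replicate 1 and replicate 2, for 1538 genes. Spearman's rho is 0.65 in replicate 1 and 0.64 in replicate 2.

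Few host genes differed between libraries. On log2(TPM + 1), 15 of 1538 (0.975%) differed by more than 2-fold between the libraries, where 3.19% of all 14720 genes with a mean of at least 1 TPM did. Among matched genes with no long contig, 2.07% did. The host genes are also the more abundant, at a median of 67.8 TPM against 16.6 in the matched genes without a long contig, and the part of abundance in this share was not tested. Of the 15, 12 were higher in replicate 2 and 3 lower by TPM. With expected counts scaled by TMM, 8 of the 15 passed 2-fold the same way, 7 higher and 1 lower. The counts of the other 7 differed less, as for Ern1 with 7869 and 6761, Mob1a with 2350.0 and 2614, and Tmem184a with 5819 and 3927. Rab14, a small GTPase of endosomes, stood at 45.3 TPM in replicate 1 and 1083 in replicate 2, a difference of 4.55 (log2). Its expected counts were 3549 and 8310.0, a much smaller ratio. Fdx1, ferredoxin, which passes electrons to steroid-making enzymes, stood at 470.1 and 1211 TPM, a difference of 1.36, with a contig of 4717 bases at a level of 10.7. Aspg stood at 25.4 and 3.86 TPM, a difference of -2.44. With 1 library on each side there is no test of these differences. The median log2 ratio of the host genes was -0.02, and the median absolute ratio was 0.16, against 0.23 over all genes.

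A single long contig was found in 1356 genes, 2 in 167, 3 in 25 and 4 in 1 gene. The gene with 4 was Syt7, a calcium-sensing synaptotagmin, named for this count. Its contigs of 3226 to 4711 bases had levels of 1.68, 2.62, 1.99 and, for the one nearest the 3' end, 14.6. Gas6, a ligand of the TAM receptor kinases and likewise named after its values were seen, had 3. The contig at its 3' end had 10001 bases at a level of 78.6, the middle one 5303 bases at 70.4, and the one nearest the 5' end 4221 bases at 5.21. In both genes the levels along 1 gene differed several-fold.

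Ovarian genes were among the hosts. The counts of the lists that follow are descriptions, to be read against the 13.8% of all reachable genes with a long contig and the 34.4% of those at 100 TPM or more. In whole tissue, fewer cells of a type and less RNA per cell cannot be told apart. Of 20 reachable genes in a list of granulosa and gonadal regulators, 6 (30%) had a long contig: Nr5a1, Gata4, Wt1, Foxo1, Esr2 and Nr2f2. Gata4, a transcription factor of the somatic gonad, had one of 4989 bases at a level of 45.6, with 234 and 269 TPM in the 2 libraries. Nr5a1, the steroidogenic factor SF-1, had one of 4878 bases at 16.4, with 320 and 312 TPM. Wt1 had one of 3436 bases at a level of only 3.30, with 200 and 211 TPM. Its level per TPM was thus the lowest of the 3. The 3 contigs cover unlike parts of their genes. Matched introns made up 83.4% of the Wt1 contig and 57.4% of that of Gata4, which also held 1637 bases of last exon. The Nr5a1 contig held no whole matched intron and a matched exon of 148 bases. The part of this in the levels was not tested.

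Of 14 reachable genes of steroid and cholesterol metabolism, 5 (35.7%) had a long contig: Scarb1, Cyp11a1, Hsd3b1, Srebf1 and Fdx1. This is close to the 34.4% of all genes at 100 TPM or more. Hsd3b1, which converts pregnenolone to progesterone, had 6263 bases at chr3:98656051-98662313 on the minus strand at a level of 233, and 3 whole introns made up 70.5% of them. Its gene stood at 1689 and 1305 TPM. Cyp11a1, which cuts the side chain of cholesterol, had 5012 bases at chr9:57871414-57876425 on the plus strand at a level of 147, with 1342 and 1325 TPM. The lipid regulator Srebf1 had 6366 bases at 44.7 with 13 matched introns. The contig of Scarb1, the receptor for high-density lipoprotein, had 3112 bases at a level of 138.

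Of 21 matrix genes, 5 had a long contig: Col1a1, Col5a1, Lamb2, Sparc and Nid1. Col1a1, the alpha-1 chain of type I collagen, had 6898 bases at a level of 95.8 with 22 matched introns. Col5a1 had 5041 bases at 5.63, and the laminin chain Lamb2 4211 bases at 55.1 with 11 matched introns. Chromatin regulators were near the background of 13.8%, with 2 of 14 (Kmt2a and Kmt2d). Kmt2d, a histone methyltransferase, had a longest contig of 4951 bases at a level of 6.97.

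Of other cell types' markers, 2 of 6 smooth muscle genes (Acta2 and Myh11) and 1 of 7 endothelial genes (Egfl7, 14.3%) had a long contig, where 13.8% of all reachable genes did. Egfl7 had 8106 bases at a level of 20.3 with 12 matched introns. Foxj1, the regulator of motile cilia, was the 1 of 4 oviduct genes, with 4795 bases at a level of 39.0 and 112 and 137 TPM. No long contig was matched to any of 7 reachable oocyte genes or 7 macrophage genes. The lists are small, and 1 gene moves each share by several percentage points.

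Of the 1549 host genes, 1532 are annotated as protein-coding and 17 as noncoding or pseudogenes. Xist, the RNA that coats the inactive X chromosome, had 6676 bases at chrX:100656708-100663383 on the minus strand, at a level of 46.5. Of its last exon, 6668 of 7671 annotated bases were covered, and its gene stood at 28.7 and 44.8 TPM. In a list of 14 long noncoding RNAs only 6 could be reached, and of these Xist alone had a long contig. A match needs 2 introns with an exon between them, so genes of fewer than 3 exons cannot be reached. Whether the unreached genes of the list have a long contig is not known here. Of the contigs matched to these 17 genes, the longest was that of Foxl2os, the transcript opposite Foxl2. It had 8798 bases at chr9:98848959-98857756 on the minus strand, a level of 19.6 and 6 matched introns. Unmatched contigs, whose type is not known, are not part of this ranking. The lincRNA AU020206 had 2 contigs, of 6831 bases at 23.6 and 4022 bases at 30.2. Firre, an X-linked noncoding RNA, had one of 3299 bases at a level of 5.43. The last 3 genes were chosen after their values were seen.

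The plus strand held 1058 long contigs (48.2%) and the minus strand 1136 (51.8%). Of contigs below 3000 bases 50.5% were on the plus strand. Median levels were 10.6 on the plus and 10.9 on the minus strand.

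A contig on the other strand overlapped 703 long contigs (32.0%), against 20.5% of those of 1000 to under 3000 bases. A longer stretch can be overlapped in more places. Where there was an overlap it took a median of 7.61% of the long contig, at a median of 5.23% of its level. In 73 cases the overlap covered at least 50% of the long contig, and in 76 the other strand had the higher level. In contigs with whole introns inside, the median level on the other strand was 3.86% of the contig's own, and in those without a junction end it was 18.3%.

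Pairs of long contigs on opposite strands overlapped in 31 places, involving 59 contigs, by 4 to 6257 bases with a median of 1391. In 18 pairs the 3' edges of the contigs overlapped, in 11 the 5' edges, and in 2 one contig lay inside the other. An edge of a contig need not be an end of its gene. In 18 pairs both contigs were matched to genes. The largest overlap was that of Cmtr1, a cap methyltransferase, on the plus strand at a level of 6.68, with Ccdc167 on the minus strand at 1.96. The contigs of Wdr6 and Dalrd3, genes both tied to transfer RNA modification, overlapped at their 3' edges by 1076 bases at levels of 68.4 and 53.7. Dalrd3 stood at 253 and 272 TPM and Wdr6 at 133 and 132 TPM. The contig of the retinoid receptor gene Rxrb, at 19, overlapped that matched to H2-Ke6, at 75.8, by 1670.0 bases at the 5' edges. The contig matched to H2-Ke6 held chains of 3 genes, so the overlap is with that contig and not shown to be with H2-Ke6 itself. The contig of Cmtr1 held chains of 2 genes. Levels in a pair were thus within 1.5-fold of each other in Wdr6 and Dalrd3 and further apart in the contigs matched to Rxrb and H2-Ke6. The pairs were named after their values were seen, and how far reads were assigned to the wrong strand was not tested.

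Long contigs were spread unevenly over chromosomes. Chromosome 7 had 217, or 5.04 per 1000 of its contigs. Chromosome 15 had 4.90, chromosome 17 4.70, chromosome 8 4.54 and chromosome 11 4.44 per 1000. The lowest values among chromosomes with over 100 contigs were 1.14 on chromosome 18 (24 long contigs), 1.38 on chromosome 13, 1.58 on chromosome 3, 1.68 on chromosome 6 and 1.70 on X. The X chromosome held 28 long contigs, 1.28% of the total, against 2.47% of the shorter ones. The mitochondrial genome had 1 among 12 contigs and the Y chromosome 0 among 38.

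The share of genes with a long contig varied over chromosomes too. A long contig was found in 19.4% of the reachable genes of chromosome 15, 18.9% of those of chromosome 17, 18.5% of those of chromosome 8 and 17.9% of those of chromosome 7. It was found in 4.65% of those of chromosome 18, 5.84% of those of X and 6.30% of those of chromosome 13. Chromosomes with shorter introns had more, with a Spearman's rho of -0.71 between this share and the median intron of the reachable genes over 20 chromosomes. The median intron was 864 bases on chromosome 17 and 964 on chromosome 7, against 2126 on chromosome 18 and 2012 on chromosome 13. The X chromosome had a median of 1246 bases, close to the 1238 of chromosome 15. Its reachable genes had a median of 11.6 TPM and those of chromosome 15 a median of 26.7.

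**Figure D5:**
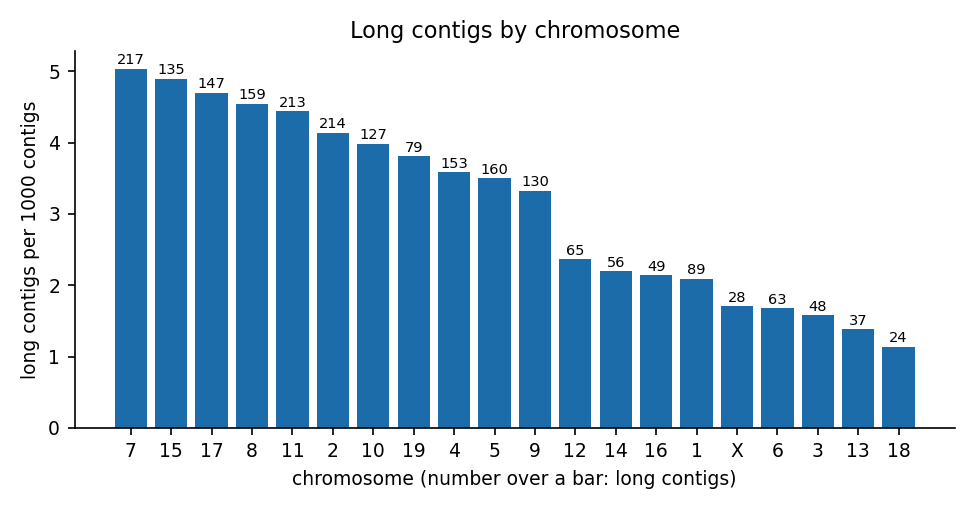
Long contigs per 1000 contigs of each chromosome, in falling order, with the number of long contigs over each bar; chromosomes M and Y are left out. Chromosome 7 is highest at 5.04 and chromosome 18 lowest at 1.14.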

How the data were processed

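Polyadenylated ovary RNA was measured in 2 libraries of 1 group. The authors deposited TPM and expected counts per gene (annotation M4, build mm10), per the file headers and notes. On mm9 the authors deposited a contig table with a signal level per contig and a junction table with a count of reads per junction. The sources used here do not name the caller, the aligner or any pooling of libraries. Apart from the contig column read as summed read bases, the other deposited score columns were not used.

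Contigs of at least 3000 bases were taken as the long ones and set beside those of 1000 to under 3000 bases. The sources used here do not state the meaning of the column read as summed read bases. It was inferred because its value over length, divided by the level, had a median of 14.3 at levels of at least 10. The range there was 14.2 to 14.4. In 31.8% of all contigs the value was a multiple of the read length. The smallest gap between contigs of a strand was 11 bases. Introns and exons were matched to GENCODE M21 by exact length, with exons up to 8000 bases searched between junctions of at least 10 reads. In 500 simulated contigs with shifted positions, 480 were matched to the right gene, 0 to a wrong one and 20 to none. Each was built from 1 protein-coding gene of the same annotation with at least 3 exons, apart from its neighbours. Wrong matches were thus unlikely by design, and the error in the real contigs was not measured. Chains of more than 1 gene were found in 34 long contigs. A contig with chains of several genes took the gene with the most, and 4 with ties were left unmatched. Last exons are those that reach the gene's end in a basic transcript. Library ratios used a pseudocount of 1 and genes with a mean of at least 1 TPM. Expected counts were rounded to whole numbers and scaled with edgeR's TMM (version 4.0.16, in R 4.3.3) as an alternative, and the fit was checked on simulated data. Other steps used Python 3.11.15, numpy 2.4.6, pandas 2.3.3, scipy 1.17.1 and matplotlib 3.10.9.

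Contigs named are the 10 longest, the 10 highest and 5 lowest in level, and the 3 on each side of the length threshold. Genes named are those matched to them, the 10 host genes with the highest TPM and the 3 members of each list with the longest contig. Genes and contigs named outside this rule illustrate a shape, a pair or a class and were chosen after their values were seen. One gene list and some named items are not reported here. The long contigs and gene lists were chosen with earlier results of these data known. The length threshold, gaps, overlaps, junction reads, pseudocount and libraries were varied. Coordinates are 1-based on mm9.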

Additional observations from a re-analysis of the deposited data

How the results depend on the processing

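The number of long contigs depended on where a contig is broken. With a minimum length of 2500 bases there were 3574, and with 4000 there were 887. After contigs were joined across gaps of up to 50 bases there were 4058, and up to 200 bases 8379. Their share of covered bases was 6.15%, 2.23%, 8.42% and 18.5% in these 4 settings, and 5.01% when contigs in the lowest quartile of level were left out. At minimum lengths of 2500 and 4000 bases the median level was 9.32 and 12.5. The overlap with the other strand was then 29.7% and 34.7%, the share with a junction end 84.0% and 91.4%, and the strongest junction had a median of 343 and 508 reads. Leaving out contigs in the lowest quartile of level moved the overlap to 28.1%, asking for 100 bases moved it to 25.8%, and asking for 10% of the contig to 13.5%. The share with a junction end was 94.0% with junctions of at least 2 reads, 78.7% with at least 50, and 84.7% with the end at least 10 bases inside. The median TPM of the host genes was 66.1 to 68.0 when either library was left out. The median log2 ratio between libraries turned from -0.02 to 0.0041 with expected counts scaled by TMM, where all genes had a median of -0.01. With the same scaling, chosen here after seeing the data, 8 host genes in place of 15 differed by more than 2-fold between libraries. The number of matched contigs and the shares on the plus strand and the X chromosome moved by less than 1.5 times or stayed within their 95% Wilson intervals in the settings run. No paired analysis was possible because the design holds 1 group. Contig and junction values have no replicate, so depth limits them in a way that could not be measured here.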
